A study of Mus musculus with 12 samples.

Results

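The BCL2 family decides whether the outer mitochondrial membrane of a cell stays closed or is opened to start apoptosis. The 10 genes described here were taken as a fixed list of symbols from a table of 55401 genes, and all 10 passed the expression filter that left 14079 genes for testing. Of the 10, 5 are pro-survival genes (Bcl2, Bcl2l1, Mcl1, Bcl2a1b and Bcl2a1d) and 5 are pro-death genes, namely the effectors Bax and Bak1 and the BH3-only genes Bcl2l11, Bbc3 and Pmaip1. They were measured by bulk RNA sequencing in 12 libraries of Sp37A3, an immature dendritic cell (DC) line from mouse spleen, 3 libraries in each of 4 groups.

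CtrV cells carried an empty CRISPR vector and express Siglec-E, an inhibitory receptor that binds sialic acids. EKO-labelled cells had been transduced with the same vector carrying a guide against Siglece, and are a pool of sorted single-cell clones, so the edit and the derivation from clones cannot be told apart. Both lines went through lentiviral transduction and were grown with GM-CSF and M-CSF. All 4 groups were stimulated with LPS, a bacterial ligand of Toll-like receptor 4, and harvested after 24 h. The OVA-pulsed groups had first taken up ovalbumin, at 0.1 mg/ml for 2 h, and then received LPS at 0.1 µg/ml. The unpulsed groups had not, and a dose of LPS for their sequencing is not given in the sources used here. No library holds cells without LPS.

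Pro-survival proteins such as BCL2, BCL-XL (encoded by Bcl2l1), MCL1 and the A1 proteins (encoded by the Bcl2a1 genes) hold BAX and BAK in check. BH3-only proteins such as BIM (Bcl2l11), PUMA (Bbc3) and NOXA (Pmaip1) bind the pro-survival proteins, and some of them also activate BAX and BAK, which then form pores that release cytochrome c. In DCs, maturation through Toll-like receptors is known to engage this family on both sides: A1 and BCL-XL are induced through NF-kB, while BIM limits the life span of activated cells. Much of the control of MCL1, NOXA and BIM acts on the proteins, which were not measured.

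Mouse A1 is encoded by several nearly identical genes on chromosome 9, and reads from them can be assigned to the wrong copy. Bcl2a1d (ENSMUSG00000099974) lies at 88723285 to 88731914 on the minus strand, Bcl2a1a (ENSMUSG00000102037) at 88956900 to 88962419 and Bcl2a1b (ENSMUSG00000089929) at 89199209 to 89207827, both on the plus strand (GRCm38, the build also called mm10, GENCODE annotation). Each has 2 exons and a coding sequence of 519 bases. Bcl2a1b and Bcl2a1d differed at 6 coding positions (98.8% identity), Bcl2a1a and Bcl2a1d at 7 and Bcl2a1a and Bcl2a1b at 11. Of the 12 coding positions at which any pair differs, 7 lie in coding bases 1 to 120, shown from the start codon with the differing positions in capitals because they are what can separate the copies:
Bcl2a1a: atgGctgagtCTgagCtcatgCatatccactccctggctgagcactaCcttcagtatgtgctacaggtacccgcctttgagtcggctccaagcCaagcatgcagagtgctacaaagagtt
Bcl2a1b: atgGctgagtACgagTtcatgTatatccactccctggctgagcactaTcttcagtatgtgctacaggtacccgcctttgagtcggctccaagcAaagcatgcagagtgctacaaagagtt
Bcl2a1d: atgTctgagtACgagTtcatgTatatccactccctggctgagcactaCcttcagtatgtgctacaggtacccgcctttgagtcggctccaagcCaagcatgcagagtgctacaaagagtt

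Over whole transcripts, 57.6% of the 50-base stretches of Bcl2a1b and 79.5% of those of Bcl2a1d occur letter for letter in another copy. A read-through gene, Gm29094, also covers 49.1% of the exon bases of Bcl2a1b on the same strand. The levels of single Bcl2a1 copies are therefore uncertain, while their sum is less so.

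The Bcl2a1 genes also share the DNA in front of them. Their promoter windows, from 250 bases before to 50 after the annotated start (RefSeq, GRCm38.p6), each hold the AP-1 motif TGANTCA, which 7.81% of the 32851 windows in the table hold on either strand. The stretches around it are shown 5′ to 3′ on the gene's strand with the motif in capitals, and are the same over 57 bases in Bcl2a1a and Bcl2a1b:
Bcl2a1a, chr9:88956775-88956831, plus strand: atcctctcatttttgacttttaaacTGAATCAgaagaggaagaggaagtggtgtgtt
Bcl2a1b, chr9:89199084-89199140, plus strand: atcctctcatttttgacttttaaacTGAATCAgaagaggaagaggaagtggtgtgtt
Bcl2a1d, chr9:88731933-88731989, minus strand: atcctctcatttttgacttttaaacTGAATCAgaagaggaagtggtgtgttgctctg

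The motif begins 120, 164 and 114 bases before the start of Bcl2a1a, Bcl2a1b and Bcl2a1d. The windows of the members were searched on both strands for 4 further motifs. The FOXO motif GTAAACA, held by 3.65% of all windows, stood 227 bases before a start of Bcl2l11 and in a window of Bbc3. The kappaB consensus, held by 8.46%, stood 242 bases before a start of Bcl2l1 and in a window of Bbc3. The Bcl2l11 and Bcl2l1 matches are shown in capitals, since these are the BH3-only and the pro-survival member with the largest differences between the lines:
Bcl2l11, chr2:128125788-128125842, plus strand: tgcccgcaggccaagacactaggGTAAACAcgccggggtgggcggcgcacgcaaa
Bcl2l1, chr2:152830925-152830967, minus strand: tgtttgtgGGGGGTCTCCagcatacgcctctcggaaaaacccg

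The p53 half-site, held by 8.36% of all windows, was found in the window of Bax on both strands of the same 10 bases. The cAMP response element TGACGTCA (1.79%) was found in none of the members' windows. Windows were given for 9 of the 10 members: 3 each for Bcl2l1 and Bbc3, 2 for Bcl2l11 and 1 for each of the others. The shares are per window, so a gene with several windows has more room for a match. A match describes the letters of a window and is not evidence of binding.

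The libraries held 27116201 to 39698572 counts, and the members 271 to 27211 counts in a single library. Levels are given in CPM, counts scaled to the normalized library total. Transcripts of Siglece, the targeted gene, were at 150.0 to 163 CPM in the 6 CtrV and at 166 to 235 CPM in the 6 EKO-labelled libraries. They were thus not reduced but higher, as were 18.9% of all tested genes in every EKO-labelled against every CtrV library. Averaged over pulsing, the log2 fold change was 0.36 (edgeR, adjusted p = 0.00037), where 60.5% of all tested genes passed. The paper screened the clones for Siglec-E and reports little or no expression in those it pooled. An edited gene can still be transcribed, but the transcript gives no check of the labels of these libraries, so the line is called EKO-labelled throughout. The first principal component separated the lines and held 83.6% of the variance. The second (7.05%) set the EKO-labelled libraries of replicate 1 apart, at 19.1 and 20.9 against -18.7 to -0.97 for those of replicates 2 and 3. Of 13 DC markers, the summed level was 23664 to 25990 CPM in CtrV and 24535 to 26426 CPM in EKO-labelled libraries, with Clec9a below 1 CPM in every group and Xcr1 below 1 CPM in CtrV cells. All 6 macrophage markers were present, with a sum of 812 to 961 CPM in CtrV and 1224 to 1410 CPM in EKO-labelled cells. This marker level moved with the line, as do the results below, and its part in them was not tested. Neutrophil markers were all at 0, and the sums of B, T and NK cell and fibroblast markers stayed below 5 CPM. In bulk libraries, fewer cells of a type and less RNA per cell cannot be told apart.

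In OVA-pulsed cells, all 5 pro-survival genes were higher in the EKO-labelled than in the CtrV line. Of the pro-death genes, Bcl2l11 was higher, Bax was lower, and Bak1, Bbc3 and Pmaip1 did not pass the test (adjusted p under 0.05, edgeR). The lines differed broadly, however: 47.0% of the 14079 tested genes passed, 25.1% higher and 21.9% lower, against 7 of the 10 members. The median log2 fold change was 0.63 over the 5 pro-survival genes, 0.11 over the 5 pro-death genes and 0.00 over all tested genes. In unpulsed cells 6 members were higher and 1 was lower, where 46.4% of all genes passed (24.5% higher, 21.9% lower). The medians there were 0.58, 0.04 and 0.00. Both pro-survival medians are the value of Bcl2a1d. Since Bcl2a1b and Bcl2a1d may share reads, they are not independent entries in these medians or in the counts of members. With OVA, Bcl2l1 (1.40) and Bcl2a1b (0.69) lay above that median, and Mcl1 (0.22) and Bcl2 (0.21) lay below it. Averaged over pulsing, 7 members were higher (31.3% of all genes) and Bax was lower (29.1%), so that 8 of 10 passed where 60.5% of all genes did. That average counts both libraries of a line and replicate number as separate samples, although those of the EKO-labelled line deviated together. With them summed, 3 against 3, 7 members and 48.9% of 13799 genes passed with the replicate block, and 4 members (Bcl2l1, Bcl2a1b, Bcl2a1d and Bax) and 41.5% of genes passed without it.

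**Figure D1:**
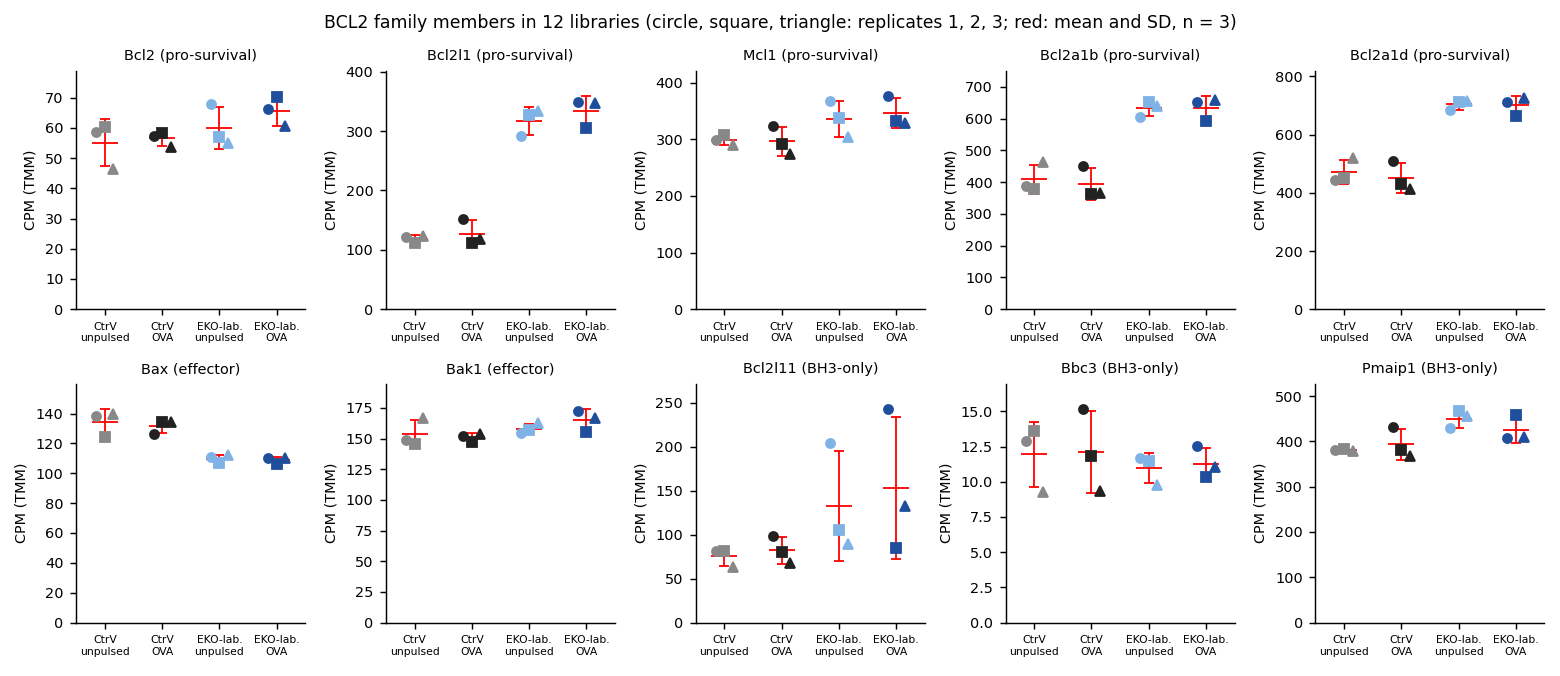
Level of each of the 10 members in every library, in CPM after TMM normalization (y axis, from 0), by group (x axis); circles, squares and triangles are replicates 1, 2 and 3, and red bars are the mean and SD of 3 libraries. The EKO-labelled libraries of Bcl2l1, Bcl2a1b and Bcl2a1d lie above, and those of Bax below, all CtrV libraries, and the Bcl2l11 circles of the EKO-labelled line stand apart at 204 and 242 CPM.

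Bcl2l1 showed the largest difference of the members. The gene (ENSMUSG00000007659) lies on chromosome 2 at 152780668 to 152831728 on the minus strand and encodes BCL-XL as its long product. In OVA-pulsed cells it was at 153, 111 and 117 CPM in the CtrV libraries of replicates 1, 2 and 3 and at 349, 305 and 347 CPM in the EKO-labelled ones. In unpulsed cells the values were 122, 112 and 123 CPM against 291, 327 and 334 CPM. The highest CtrV library, at 153 CPM, was far below the lowest EKO-labelled one, at 291 CPM. The fitted differences were 2.63-fold in OVA-pulsed cells (log2 fold change 1.40 ± 0.10 SE, adjusted p = 1.8e-06) and 2.68-fold in unpulsed cells (1.42 ± 0.10, adjusted p = 1.7e-06). Of the members, Bcl2l1 alone passed with a log2 fold change of at least 1, which 5.63% of all genes did in the higher direction in OVA-pulsed cells. The gene counts sum over all transcripts, so long and short BCL-X forms were not separated.

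Bcl2a1d and Bcl2a1b had the highest levels of the members per kilobase of exon, as given further on. In OVA-pulsed cells Bcl2a1b was at 452, 364 and 367 CPM in the CtrV and 654, 594 and 658 CPM in the EKO-labelled libraries. Bcl2a1d was at 510, 429 and 414 CPM against 711, 665 and 726 CPM. For both genes, every EKO-labelled library lay above every CtrV library, also across the unpulsed groups. The log2 fold changes in OVA-pulsed cells were 0.69 ± 0.09 for Bcl2a1b (adjusted p = 0.00015) and 0.63 ± 0.08 for Bcl2a1d (adjusted p = 0.00012). In unpulsed cells they were 0.63 ± 0.09 (adjusted p = 0.00028) and 0.58 ± 0.08 (adjusted p = 0.00024). The counts of Bcl2a1a, Bcl2a1b, Bcl2a1c and Bcl2a1d were also added up, so that a read on the wrong copy among these no longer matters. The difference of the sum was 0.64 ± 0.09 with OVA (edgeR, adjusted p = 0.00017) and 0.58 ± 0.09 without (adjusted p = 0.00033). Reads assigned to Gm29094 were not part of the sum.

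Mcl1 (ENSMUSG00000038612, chromosome 3, 95658788 to 95663176, plus strand) encodes a short-lived pro-survival protein that myeloid cells depend on. It was at 324, 292 and 273 CPM in the CtrV and 376, 332 and 330 CPM in the EKO-labelled OVA-pulsed libraries. Those groups did not overlap, and each EKO-labelled library exceeded the CtrV library of the same replicate number. The difference was small, at 1.17-fold (log2 0.22 ± 0.06, adjusted p = 0.0077). Without the replicate block its adjusted p was 0.056, and without CtrV replicate 2 it was 0.050, just above the threshold. In unpulsed cells Mcl1 was at 299, 308 and 290 CPM against 367, 338 and 304 CPM, and the groups overlapped. The difference of 0.17 ± 0.06 passed (adjusted p = 0.033) but not without the block (adjusted p = 0.14), with upper-quartile normalization (0.12), with no filter (0.060) or in a fit of the 6 unpulsed libraries alone (0.15). It also failed without unpulsed CtrV replicate 1 (0.16), OVA-pulsed CtrV replicate 2 (0.061), or unpulsed EKO-labelled replicate 1 (0.10) or 2 (0.099), and without both EKO-labelled libraries of replicate 1 (0.12).

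Bcl2 (ENSMUSG00000057329, chromosome 1, 106538178 to 106714274, minus strand), the founding member of the family, was low for its length. Its OVA-pulsed values were 57.4, 58.3 and 53.8 CPM in the CtrV and 66.1, 70.1 and 60.5 CPM in the EKO-labelled line. These groups did not overlap, and the log2 fold change was 0.21 ± 0.07 (adjusted p = 0.033). Without the block the adjusted p was 0.14, and with upper-quartile normalization it was 0.064. It was 0.12 without CtrV replicate 1 or 2, 0.14 without EKO-labelled replicate 2 and 0.11 without EKO-labelled replicate 3, so this call rests on single libraries. In unpulsed cells Bcl2 was at 58.7, 60.4 and 46.3 CPM against 67.8, 56.9 and 55.01 CPM. Those values overlapped, and the difference was 0.12 (95% interval -0.04 to 0.29, adjusted p = 0.19); without unpulsed EKO-labelled replicate 2 it was 0.21 (adjusted p = 0.047).

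Bax encodes one of the pore-forming effectors and was the member that was lower in the EKO-labelled line. The gene (ENSMUSG00000003873) lies on chromosome 7 at 45461697 to 45466898 on the minus strand. In OVA-pulsed cells it was at 127, 134 and 134 CPM in the CtrV and 110.2, 106 and 110.0 CPM in the EKO-labelled libraries. In unpulsed cells it was at 138, 124 and 140 CPM against 111, 107 and 112 CPM. The EKO-labelled libraries of both treatments lay within 106 to 112 CPM, all below the lowest CtrV library at 124 CPM. The log2 fold change was -0.27 ± 0.05 with OVA (adjusted p = 0.0013) and -0.29 ± 0.05 without (adjusted p = 0.00097), a level 0.83 and 0.82 times that of the CtrV line. A gene model named Gm45808 covers 12.2% of the exon bases of Bax on the same strand, and it was lower by a similar amount, at -0.30 ± 0.05 with OVA (adjusted p = 0.00041).

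Bak1 (ENSMUSG00000057789, chromosome 17, 27019810 to 27029009, minus strand) encodes the other effector. It was at 152, 148 and 153 CPM in the CtrV and 173, 155 and 166 CPM in the EKO-labelled OVA-pulsed libraries. Although these groups did not overlap, the difference of 0.13 (95% interval 0.01 to 0.24) did not pass after adjustment (adjusted p = 0.074). It passed only when unpulsed CtrV replicate 3 was left out (adjusted p = 0.040). In unpulsed cells Bak1 was at 148, 146 and 167 CPM against 154, 157 and 162 CPM, and the difference of 0.04 (95% interval -0.08 to 0.16, adjusted p = 0.56) changed sign with upper-quartile normalization. Of its exon bases, 25.5% lie opposite another gene, and the sources do not say if reads were counted by strand.

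Bcl2l11 encodes BIM and was the member with the largest spread in the EKO-labelled line. The gene (ENSMUSG00000027381) lies on chromosome 2 at 128126038 to 128162547 on the plus strand. In OVA-pulsed cells it was at 98.8, 79.7 and 67.9 CPM in the CtrV libraries of replicates 1, 2 and 3 and at 242, 85.0 and 132 CPM in the EKO-labelled ones. In unpulsed cells it was at 81.6, 81.1 and 62.7 CPM against 204, 105 and 88.8 CPM. The OVA-pulsed groups overlapped and the unpulsed ones did not. Replicate 1 of the EKO-labelled line was 2.23 times the mean of replicates 2 and 3 with OVA and 2.11 times without, against 1.34 and 1.14 times in CtrV cells.

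The Bcl2l11 difference was 0.82 ± 0.23 with OVA (1.77-fold, adjusted p = 0.013) and 0.72 ± 0.23 without (1.65-fold, adjusted p = 0.025). Between libraries of the same replicate number it was 1.29, 0.09 and 0.96 with OVA and 1.32, 0.37 and 0.50 without. The numbers are not shown to pair the libraries of the 2 lines. Without the replicate block neither call held (0.90, adjusted p = 0.072, and 0.82, adjusted p = 0.10). With both EKO-labelled libraries of replicate 1 left out the differences were 0.53 (adjusted p = 0.047) and 0.47 (adjusted p = 0.067). The call with OVA was also lost without OVA-pulsed CtrV replicate 1 (0.68, adjusted p = 0.062) or EKO-labelled replicate 1 (0.62, adjusted p = 0.073) or 3 (0.70, adjusted p = 0.066). The unpulsed call was lost without unpulsed CtrV replicate 1 (0.49, adjusted p = 0.11) or 3 (0.73, adjusted p = 0.069), or EKO-labelled replicate 1 (0.56, adjusted p = 0.092) or 2 (0.75, adjusted p = 0.059). Averaged over pulsing the difference was 0.77 ± 0.16 (adjusted p = 0.0019), in a fit that takes the 6 libraries of a line as separate samples. With the OVA-pulsed and unpulsed library of each number summed, it was 0.76 ± 0.19 with the replicate block (adjusted p = 0.018) and 0.85 ± 0.32 without it, where it did not pass (adjusted p = 0.070).

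**Figure D2:**
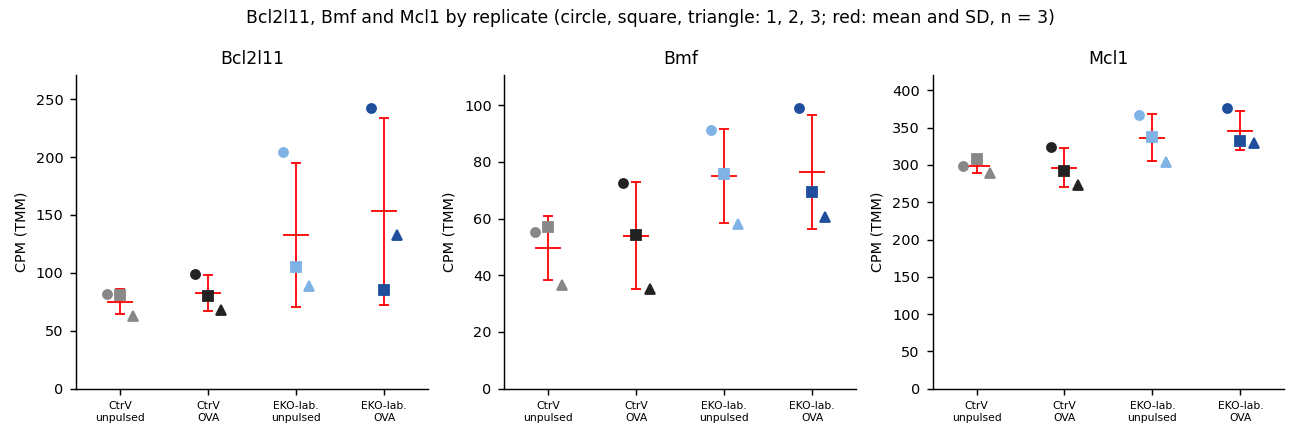
Levels of the BH3-only genes Bcl2l11 and Bmf and of Mcl1 in CPM (y axis, from 0) by group (x axis); circles, squares and triangles are replicates 1, 2 and 3, and red bars are the mean and SD of 3 libraries. Replicate 1 is the highest library of all 3 genes in the EKO-labelled groups and in OVA-pulsed CtrV cells, and in the EKO-labelled groups its gap to the next library is widest for Bcl2l11.

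Pmaip1 (ENSMUSG00000024521), which encodes NOXA, a BH3-only protein that binds MCL1, was abundant and differed little. With OVA it was at 432, 381 and 368 CPM in the CtrV and 407, 458 and 409 CPM in the EKO-labelled libraries. Without OVA it was at 381, 383 and 379 CPM against 428, 468 and 455 CPM. The unpulsed groups did not overlap and differed by 0.24 ± 0.07 (1.18-fold, adjusted p = 0.015), while the OVA-pulsed groups overlapped and differed by 0.11 (95% interval -0.04 to 0.26, adjusted p = 0.21). The change of that difference with pulsing, -0.13 ± 0.10, did not pass (edgeR, adjusted p = 1), so the lines are not shown to differ more in one treatment. The unpulsed call was lost without unpulsed CtrV replicate 2 (adjusted p = 0.065) or EKO-labelled replicate 2 (0.055) or 3 (0.072). The OVA-pulsed difference moved in both directions with single libraries: it was 0.20 without CtrV replicate 1 (adjusted p = 0.018), 0.05 without replicate 2 of either line (adjusted p = 0.69 for CtrV and 0.66 for EKO-labelled cells) and 0.07 without CtrV replicate 3 (adjusted p = 0.53).

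Bbc3 (ENSMUSG00000002083, chromosome 7, 16308393 to 16318205, plus strand), which encodes the p53 target PUMA, was the member with the fewest counts. It was at 15.1, 11.9 and 9.34 CPM in the CtrV and 12.5, 10.3 and 11.0 CPM in the EKO-labelled OVA-pulsed libraries. The unpulsed values were 12.9, 13.6 and 9.30 CPM against 11.7, 11.5 and 9.74 CPM. The groups overlapped in both treatments. The differences were -0.09 with OVA (95% interval -0.34 to 0.17, adjusted p = 0.57) and -0.11 without (-0.38 to 0.15, adjusted p = 0.46).

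**Figure D3:**
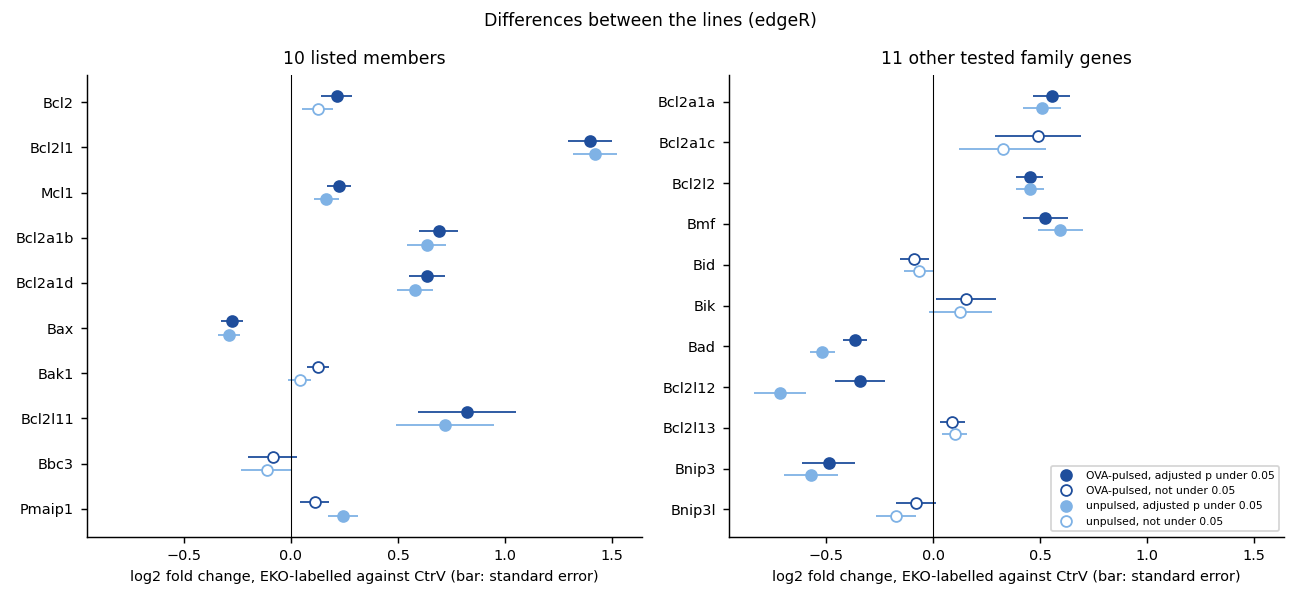
Log2 fold change of EKO-labelled against CtrV cells (x axis, bars are standard errors from edgeR) for the 10 members (left) and the 11 other tested genes of the family (right), with OVA in dark and without in light blue; filled points have an adjusted p under 0.05. Bcl2l1 stands apart at 1.40 and 1.42, and Bax is the member with filled points to the left of 0.

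Counting libraries rather than test results, 6 members were higher in all 3 EKO-labelled than in all 3 CtrV libraries with OVA (27.0% of all genes) and Bax was lower (25.9%). Without OVA, 5 were higher (24.1%) and Bax was lower (22.9%). Over both treatments, 6 libraries against 6, Bcl2l1, Bcl2a1b and Bcl2a1d were higher throughout (18.9% of all genes) and Bax lower throughout (16.6%). The other 6 members overlapped.

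Levels can be set side by side between genes only per length, here as CPM per kilobase of exon. In OVA-pulsed CtrV cells the order was Bcl2a1d (523 ± 60.1, SD, n = 3), Bcl2a1b (482 ± 61.2), Pmaip1 (144 ± 12.4), Mcl1 (86.8 ± 7.55), Bax (83.5 ± 2.84), Bak1 (62.8 ± 1.32), Bcl2l1 (27.7 ± 4.92), Bcl2l11 (10.2 ± 1.94), Bcl2 (6.17 ± 0.26) and Bbc3 (5.70 ± 1.37). The ranges of the 3 libraries overlapped between Bcl2a1d and Bcl2a1b, between Mcl1 and Bax and between Bcl2 and Bbc3, and were apart for the other neighbors. In OVA-pulsed EKO-labelled cells Bcl2l1 (72.8 ± 5.44 CPM per kilobase) had moved up from place 7 to place 5 and overlapped with Bax (69.1 ± 1.37), which overlapped with Bak1 (68.5 ± 3.66). The places of the other members were the same apart from Bax and Bak1, which each stood 1 place lower. The lengths are those of all annotated exons together, so genes with long alternative ends such as Bcl2l11 (8029 bases) and Bcl2 (9157 bases) are set low. With the longest transcript as the length, Bcl2l1 was at 49.4 and 129.98 CPM per kilobase in CtrV and EKO-labelled OVA-pulsed cells, the latter above Mcl1 (101.2) and Bax (99.0), so its place depends on the length used, while its difference between the lines does not.

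The ratio of Bcl2l1 to Bax on this scale was 0.333 ± 0.0714 in CtrV and 1.05 ± 0.0586 in EKO-labelled OVA-pulsed cells (SD, n = 3), and 0.305 ± 0.00392 against 0.994 ± 0.0798 in unpulsed cells. The highest CtrV library was at 0.415 and the lowest EKO-labelled one at 0.904. Bcl2l1 had the largest difference of the members and Bax was the only one called lower, so this gap follows from the choice of genes. For Mcl1 to Pmaip1, the ratio was 0.602 ± 0.00936 in CtrV and 0.654 ± 0.080 in EKO-labelled OVA-pulsed cells. In unpulsed cells it was 0.627 ± 0.0164 against 0.599 ± 0.0774, and the lines overlapped in both treatments. The ratio of Bcl2l1 to Bcl2l11 behaved differently between replicates: EKO-labelled replicates 2 and 3 were at 6.28 and 4.59 with OVA and at 5.47 and 6.58 without, whereas replicate 1 was at 2.52 and 2.49, inside the CtrV range of 2.42 to 3.45. The ratio of all 5 pro-survival to all 5 pro-death transcripts was 3.67 ± 0.27 in CtrV and 5.58 ± 0.29 in EKO-labelled OVA-pulsed cells, and the Bcl2a1 copies made up most of the pro-survival sum: without them it was 0.393 ± 0.0226 against 0.570 ± 0.0246. The sizes of these ratios depend on the lengths used. They are descriptions of transcripts, built from members whose differences are given above.

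**Figure D4:**
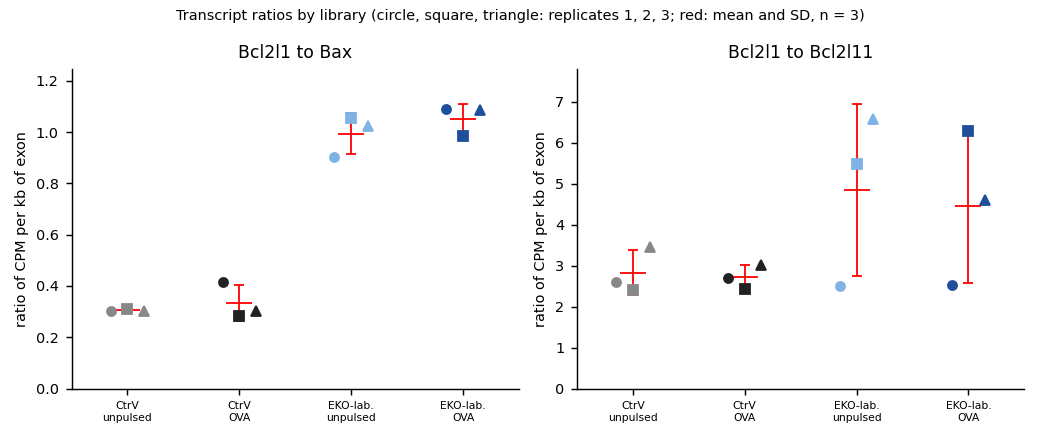
Ratio of Bcl2l1 to Bax (left) and of Bcl2l1 to Bcl2l11 (right) in CPM per kilobase of exon (y axis, from 0) by group (x axis); circles, squares and triangles are replicates 1, 2 and 3, and red bars are the mean and SD of 3 libraries. All EKO-labelled libraries lie above all CtrV libraries for Bcl2l1 to Bax, while for Bcl2l1 to Bcl2l11 the EKO-labelled circles, at 2.49 and 2.52, lie among the CtrV libraries.

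No member passed the test between OVA-pulsed and unpulsed cells of the same line. In CtrV cells the log2 fold changes of OVA-pulsed against unpulsed libraries lay between -0.06 and 0.11, and in EKO-labelled cells between -0.08 and 0.21. No member had an unadjusted p under 0.05 in either line, the smallest being 0.40 and 0.099, and in no member were the groups apart (4.37% of all genes in CtrV and 4.90% in EKO-labelled cells). Of all 14079 genes, 0 (0%) passed in either line with edgeR, DESeq2 or limma voom. At an unadjusted p under 0.05 the counts were 231 (1.64%), 44 and 246 in CtrV and 394 (2.80%), 156 and 423 in EKO-labelled cells for the 3 tools. With a separate replicate block for each line, 0 genes passed in either line with edgeR, and 388 in CtrV and 732 in EKO-labelled cells had an unadjusted p under 0.05. The difference between the lines did not pass a test for dependence on pulsing in any gene with these tools either, with 269 (1.91%), 103 and 297 genes at an unadjusted p under 0.05. For the members this dependence lay between -0.13 and 0.10, with standard errors of up to 0.32 for Bcl2l11.

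The rest of the family was split in the same comparison. Of 16 further genes, 11 were tested. In OVA-pulsed cells 3 were higher in the EKO-labelled line, 3 were lower and 5 did not pass, and the counts were the same without OVA. With 25.1% of all genes higher and 21.9% lower, these counts are near the background. Among pro-survival genes, Bcl2a1a (343 ± 17.6 against 233 ± 23.4 CPM, log2 fold change 0.55 ± 0.09, adjusted p = 0.00047) and Bcl2l2, which encodes BCL-W (29.6 ± 2.67 against 21.7 ± 1.15 CPM, 0.45 ± 0.06, adjusted p = 0.00021), were higher. Bcl2a1c, a shorter copy at 1.21 to 2.01 CPM in these 6 libraries, did not pass (0.49, 95% interval 0.05 to 0.93, adjusted p = 0.067).

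Among BH3-only genes the directions differed. Bmf, whose protein BMF binds BCL2 and its relatives, was at 72.6, 54.4 and 35.0 CPM in CtrV and 99.0, 69.4 and 60.6 CPM in EKO-labelled OVA-pulsed libraries. These groups overlapped, while each EKO-labelled library exceeded the CtrV library of its number (0.52 ± 0.10, adjusted p = 0.0020). Bad, whose protein is held inactive by survival signals, was lower (19.9 ± 1.40 against 25.5 ± 0.963 CPM, -0.36 ± 0.06, adjusted p = 0.00039). Bid (-0.09, adjusted p = 0.33), which links death receptors to mitochondria, and Bik (0.15, adjusted p = 0.40) did not pass.

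Of the more distant relatives, Bcl2l12 (-0.34 ± 0.12, adjusted p = 0.034) and the mitophagy receptor Bnip3 (-0.49 ± 0.12, adjusted p = 0.0074) were lower. Bcl2l13 (0.09, adjusted p = 0.22) and Bnip3l (-0.08, adjusted p = 0.50) did not pass. Bok, Bcl2l14 and Bcl2l15 were below the filter, and Bcl2l10 and Hrk had 0 counts in all 12 libraries, which allows up to 3 counts or 0.0784 to 0.110 CPM in a library.

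The steps beyond the BCL2 family were described from fixed lists. Of 21 genes of the apoptosome, the caspases and their inhibitors (IAPs), 6 were higher and 5 lower with OVA, again near the background of 25.1% and 21.9%. Birc3 and Birc2, which encode the cellular IAPs that ubiquitinate RIPK1, were higher (Birc3 140.5 ± 4.54 against 75.6 ± 9.04 CPM, 0.90 ± 0.08, adjusted p = 6.9e-06, and Birc2 0.80 ± 0.09). The executioner caspase gene Casp6 was lower (35.4 ± 1.38 against 85.8 ± 3.18 CPM, -1.28 ± 0.10, adjusted p = 3.7e-06), as was Parp1 (-0.42 ± 0.06). The median of the list was 0.06, against 0.00 over all genes.

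Of 15 tested death receptor genes, 8 were higher and 2 lower (25.1% and 21.9% of all genes), with a median of 0.23. Cflar, which encodes the caspase-8 inhibitor c-FLIP, was at 302 ± 33.9 CPM in EKO-labelled and 88.7 ± 24.9 CPM in CtrV cells (1.80 ± 0.12, adjusted p = 9.6e-07). Tnfaip3, which encodes A20, was also higher (1.21 ± 0.11, adjusted p = 6.3e-06). The TRAIL receptor gene Tnfrsf10b (-0.95 ± 0.11, adjusted p = 5.0e-05) and the deubiquitinase gene Cyld (-0.26 ± 0.06, adjusted p = 0.0046) were lower.

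Of 16 tested genes of p53 and its targets (Bax, Bbc3 and Pmaip1, which p53 also induces, were not counted again), 3 were higher and 7 lower (25.1% and 21.9% of all genes), with a median of -0.11. Rrm2b (0.61 ± 0.07) and Btg2 (0.23 ± 0.07, with overlapping groups) were higher, while Zmat3 (-0.83 ± 0.07) and the receptor gene Eda2r (-2.10 ± 0.24, at 0.470 ± 0.0522 against 2.03 ± 0.679 CPM) were lower. Of 6 tested genes on a list for MCL1 turnover, Trib1, which encodes a pseudokinase, was higher (0.52 ± 0.11, adjusted p = 0.0022) and none was lower. With OVA, Huwe1, Usp9x, Fbxw7, Btrc and Gsk3b did not pass, and a part of Trib1 in MCL1 turnover was not tested. Of 11 tested genes of mitochondrial shape, 3 were higher, near the 25.1% of all genes. Dnm1l, which encodes the fission GTPase DRP1, differed by 0.27 ± 0.06 and the protease gene Yme1l1 by 0.17 ± 0.05. In unpulsed cells, where 24.5% of all genes were higher and 21.9% lower, the counts were 7 and 5, 9 and 3, 3 and 8, and 2 and 0 for the first 4 lists in the order given, 4 genes of mitochondrial shape were higher, and the named genes differed in the same direction.

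**Figure D5:**
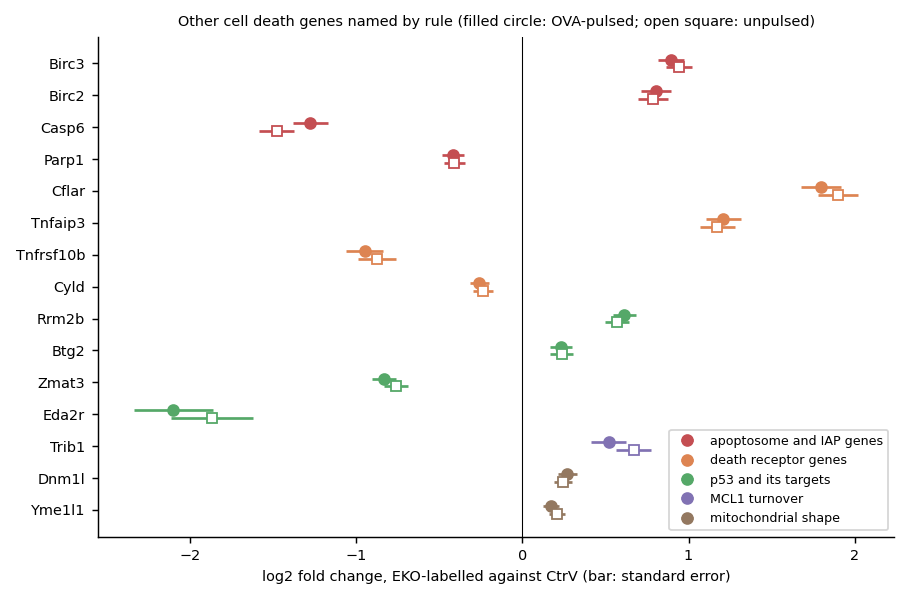
Log2 fold change of EKO-labelled against CtrV cells (x axis, bars are standard errors from edgeR) for genes named by rule from lists of other cell death genes, with OVA as filled circles and without as open squares, colored by list. Cflar, at 1.80 with OVA, lies farthest to the right and Eda2r, at -2.10, farthest to the left.

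The genes whose log2 CPM followed each member most closely over the 12 libraries were sought among 12289 genes, and Pearson's r is given as a description. These r values share the difference between the lines, so r of the deviations from the group means is given second. For Bcl2l1 they were Clic4 (0.996, 0.854) and Cyfip1 (0.995, 0.832). For both Bcl2a1b and Bcl2a1d they were Gm29094, the read-through gene that shares exons with Bcl2a1b (0.999, 0.996 and 0.996, 0.960), and Gm2619 (0.990, 0.903 and 0.993, 0.910). Bax was closest to Gm45808 (0.986, 0.864), which overlaps it, and to Gtf2h1 (0.986, 0.921).

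Bcl2l11 was followed by Stk4 (0.990, 0.994) and Upf2 (0.988, 0.986), both also within groups. Mcl1 was followed by Gpr55 (0.978, 0.959) and Hspbap1 (0.977, 0.964). The closest genes were Fubp1 (0.949, 0.918) and Ube3a (0.934, 0.936) for Bcl2, and Ubxn6 (0.951, 0.931) and Capns1 (0.933, 0.916) for Bak1. They were Insr (0.927, 0.942) and Taco1 (0.911, 0.955) for Bbc3, and Gm36501 (0.936, 0.842) and Ctso (0.935, 0.877) for Pmaip1. Between members, Mcl1 and Bcl2l11 had an r of 0.911, and 0.845 within groups, while Bcl2l1 and Bcl2l11 had 0.672, and 0.15 within groups. Replicate 1 was the highest EKO-labelled library of both Mcl1 and Bcl2l11 in each treatment. Within-group values of Bcl2l11, also those with Stk4 and Upf2, therefore lean on replicate 1 of that line. How far they do so was not tested.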

How the data were processed

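RNA sequencing of 12 libraries was analysed, grouped by the sample labels. The table deposited by the authors holds raw, unnormalized counts for each gene. Per the methods, STAR alignments to mm10, with up to 10 hits allowed and 1 location reported, were summed over the exons of Ensembl genes by featureCounts. The use of strand in counting is not given in the sources used here. No column of the table was unused. Where replicates came from is not stated, so p-values measure the spread between these libraries, which may be technical. Replicates of a group differed by more than counting noise (chi-square per degree of freedom 4.85 to 45.3).

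Tests used edgeR 4.0.16 in R 4.3.3 (TMM, quasi-likelihood, all 12 libraries, group and replicate number as covariates, log2 CPM above 0 in at least 2 libraries) with Benjamini-Hochberg adjustment over 14079 genes. The methods name the replicate as a covariate. Between the lines, deviations of same-numbered libraries correlated at 0.449, 0.292 and 0.289 with OVA and at 0.0602, -0.0118 and 0.263 without. With OVA each of these was the highest value for its libraries, but CtrV replicate 3 and EKO-labelled replicate 2 also correlated at 0.224. With 3 libraries per group, such values do not establish that the numbers pair the libraries of the lines. Between treatments, they correlated at 0.706, 0.351 and 0.411 in the EKO-labelled line and at 0.0775, 0.179 and 0.373 in CtrV cells.

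The members, lists and alternatives were chosen with earlier results of these data known. The named genes are all members, all other family genes, and in each further list up to 2 genes higher and 2 lower with the smallest adjusted p in OVA-pulsed cells; 1 gene of these is not reported here. The alternatives were DESeq2 1.42.0, limma 3.58.1 voom, RLE and upper-quartile normalization, other filters and thresholds, no replicate block, 6 libraries, and libraries left out; the bias-adjusted fit of newer edgeR, libraries of a line and number summed, and a block within each line were added after seeing the data. The edgeR, DESeq2 and limma voom fits were tested on simulated counts, for the OVA-pulsed comparison of the lines and without a replicate effect. The other steps were not tested in this way. Levels are CPM on TMM-scaled totals. Symbols, exon lengths and coding sequences come from GENCODE for GRCm38, which is not the gene model the authors used, and promoter windows come from RefSeq.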

Additional observations from a re-analysis of the deposited data

How the results depend on the processing

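No called difference changed sign under an alternative. Bcl2l1, Bcl2a1b, Bcl2a1d and Bax passed in both treatments under all alternatives in which they were tested, other than the limit on fold change. Without the replicate block, 4 members instead of 7 passed with OVA (Bcl2l1, Bcl2a1b, Bcl2a1d and Bax); those also are the 4 that passed in unpulsed cells at an adjusted p under 0.01. In the fit of all 12 libraries, leaving out the block ended the calls of Bcl2, Mcl1 and Bcl2l11 with OVA, of Mcl1 and Bcl2l11 without, and of Bcl2 averaged over pulsing (adjusted p = 0.083), and no other call of a member between the lines. With a log2 fold change of at least 1 required, 1 member passed with OVA, without OVA and on average, and 1268, 1241 and 1254 genes. With single libraries left out, members called numbered 5 to 8 with OVA, 5 to 7 without and 7 to 9 on average, and genes 5171 to 6993, 5364 to 6476 and 7758 to 8313. Upper-quartile normalization lowered the median of all genes to -0.04 with OVA and -0.05 without and turned the counts of higher and lower genes from 3531 and 3088 to 3103 and 3696 with OVA, and from 3448 and 3089 to 2910 and 3864 without. With libraries of a line and number summed, the averaged call of Pmaip1 was lost (adjusted p = 0.095 with and 0.085 without the block), and 4 members passed without the block, with Bcl2 at 0.18, Mcl1 at 0.084 and Bcl2l11 at 0.070. Of single-gene values, 38 lost and 4 gained a call, as given here or beside the members, and 60 of 1398 changed sign without being called in either fit. Averaged over pulsing, Bcl2 also missed the threshold with upper-quartile normalization (adjusted p = 0.052) and without OVA-pulsed EKO-labelled replicate 2 (0.056), and Bak1 passed without unpulsed CtrV replicate 3 (0.022). The causes of these changes were not tested. At this depth 5 other family genes were too low to test.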
